A study of Mus musculus with 6 samples.

Results

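The 6 mouse primary cortical cultures of this RNA sequencing series fall into 2 sets by the names of their libraries, and the state of these sets was compared without regard to the treatment the series tests. The vehicle and NGPF2 libraries of replicate 1 formed one set (called vehicle 1 and NGPF2 1). The vehicle libraries of replicates 2 and 3 (vehicle 2 and vehicle 3), whose titles share a library stem that those of replicate 1 lack, formed the other. The comparison therefore took 4 of the 6 libraries, 2 against 2, and 16769 of 31245 genes, those whose normalized count averaged 10 or more over the 4 libraries. The NGPF2 libraries of replicates 2 and 3 were left out by the same rule.

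All cultures were prepared from the cortex of pups of postnatal day 1, plated at 60000 cells/ml in a Neurobasal A and B27 medium, and used at 12 to 13 days in vitro. Vehicle was PBS for 2 h, and NGPF2, the agent under study, was applied at 1.5 ng/ml for 2 h. No strain, genotype or sex was labelled. The series states 3 independent experiments, so that the replicate 1 set is 1 experiment seen through 2 libraries of which 1 was treated. Its spread therefore holds any effect of NGPF2, while that of vehicle 2 and 3 is between experiments. Preparation, days in culture, library preparation and sequencing run may all differ between the sets and cannot be told apart. No batch is stated in the titles, so the word here means only the shared library stem.

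Cortical cultures of this kind hold excitatory neurons, interneurons that migrated in from the ventral forebrain, and dividing glia that were carried over with the dissected tissue. Over the first weeks in vitro, neurons exchange a program of migration and axon growth (doublecortin, polysialic acid, early tubulins) for one of synaptic transmission, and many receptors and channels exchange subunits. Spontaneous firing in such networks drives immediate early genes, transcription factors and effectors that are transcribed within minutes of calcium entry.

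Values are normalized counts, the count of a library divided by its size factor, and a log2 difference is that of the normalized count plus 1, taken as replicate 1 minus vehicle 2 and 3. Higher and lower refer to the replicate 1 cultures. A gene was called at an adjusted p under 0.05 (limma, 2-sided, Benjamini-Hochberg over the 16769 genes). Totals were 44788235 and 45193691 counts in vehicle 1 and NGPF2 1, and 32914352 and 24311967 in vehicle 2 and 3. Pairs within a set had an SD of the log2 difference over genes of 0.438 (vehicle 1 and NGPF2 1) and 0.547 (vehicle 2 and 3), and pairs across the sets 0.926 to 0.962. Vehicle 1 and NGPF2 1 differed by more than counting noise (median squared deviation 3.74 times that expected from counting, against 3.84 for vehicle 2 and 3), so they were not copies of 1 library.

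The sets differed in a large share of the transcriptome. Of the genes tested, 42.6% were called, 3589 higher (21.4%) and 3550 lower (21.2%), and 1124 (6.7%) were higher and 864 (5.15%) lower by more than 2-fold. The median log2 difference over all genes was 0.01. Values of the sets did not overlap for 74.6% of genes. With vehicle 1 alone against vehicle 2 and 3, 1846 genes were called higher (11.0%) and 2056 lower (12.3%), and with NGPF2 1 alone 1889 and 2158, and in neither case was a gene called in the opposite direction. In these last fits the lone library is assumed to vary as vehicle 2 and 3 do. The p-values measure the spread between these libraries only, and an exact permutation test of 2 against 2 cannot go below p = 0.333.

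Genes of excitatory cortical neurons were present in both sets, as the label of the cultures has it, but the genes of their mature, glutamatergic state were lower in replicate 1. Slc17a7, the vesicular glutamate transporter VGLUT1, stood at 5583 and 4244 normalized counts in vehicle 1 and NGPF2 1 and at 19837 and 28191 in vehicle 2 and 3. The sets did not overlap, and the log2 difference was -2.28 (SE 0.20, adjusted p = 0.000984, limma). Camk2a, the alpha subunit of the calcium/calmodulin-dependent kinase of excitatory synapses, stood at 12518 and 13081 against 53272 and 47771, 3.95-fold lower. Nrgn, neurogranin, a calmodulin-binding protein of spines, stood at 3133 and 3294 against 31321 and 28098, 9.24-fold lower. Slc30a3, the zinc transporter of glutamatergic vesicles, stood at 113 and 122 against 1233 and 1126, a log2 difference of -3.32. Each of these genes was lower in both replicate 1 libraries than in either of the others, and the sets did not overlap for 74.6% of all genes.

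Transcription factors that specify the same neurons differed by less and in both directions. Neurod2 and Neurod6, factors of postmitotic excitatory neurons, were higher by 0.23 and 0.21 on the log2 scale, calls that were each lost in 5 of 14 alternatives, those without vehicle 1, vehicle 3 or NGPF2 1 among them (adjusted p up to 0.139 and 0.127, limma). Tbr1, a factor of deep cortical layers, stood at 1757 and 1778 against 1619 and 1397 normalized counts and did not pass (adjusted p = 0.0825, limma). Emx1, a factor of the dorsal forebrain, was lower, at 457 and 407 against 823 and 816. Of 15 excitatory neuron genes measured, 4 were higher and 9 lower (median log2 difference -0.49), where 21.4% and 21.2% of all genes were called.

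Layer genes were called in both directions, where 21.4% of all genes were called higher and 21.2% lower. Of 17 genes of deep layers 9 were higher and 3 lower (median log2 difference 0.69). Bcl11b, also called Ctip2, a factor of subcortical projection neurons that interneurons and striatal neurons also express, stood at 4609 and 4803 against 1663 and 1517. Of 14 upper layer genes 6 were higher and 5 lower (median 0.15). The axon guidance receptor Unc5d stood at 3722 and 3925 against 1545 and 1474, whereas Calb1, the calcium buffer calbindin, stood at 1755 and 1496 against 3423 and 2747.

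Genes of inhibitory neurons were higher in the replicate 1 cultures nearly throughout the list. Of 21 genes measured 20 were called higher and none lower, where 21.4% of all genes were called higher, and the median log2 difference was 1.33. With vehicle 1 alone, 16 of the 21 were called. The one that did not pass, Npas1, had a log2 difference of 0.17. In bulk RNA, fewer cells of a type and less RNA of that type per cell cannot be told apart, here and in every cell type below.

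Gad1 and Gad2, which make GABA, stood at 47717 and 42951, and 23349 and 23700 normalized counts, in vehicle 1 and NGPF2 1. In vehicle 2 and 3 they stood at 23655 and 25827, and 10752 and 11000, so that both genes were about as far apart between the sets (1.83-fold and 2.16-fold, log2 differences 0.87 and 1.11, adjusted p = 0.000733 and 0.000124, limma). The vesicular transporter Slc32a1 stood at 13775 and 13587 against 5801 and 6460. None of these 3 genes overlapped between the sets, as 74.6% of all genes did not.

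The factors that build interneurons in the ganglionic eminences were among the higher genes. Lhx6, needed in interneurons of the medial eminence, stood at 3708 and 3943 against 1100 and 881 normalized counts (3.86-fold). Nkx2-1, which acts upstream of Lhx6 in progenitors, stood at 155 and 154 against 35.7 and 35.8. Dlx5 was 3.74-fold, Dlx2 3.25-fold and Dlx1 1.81-fold higher, all homeobox factors of the ventral forebrain. Maf and the neuregulin receptor Erbb4 were 3.18-fold and 2.99-fold higher. Sp8 had the largest difference on the list, at 783 and 816 against 163 and 185 (4.60-fold). Prox1, Nr2f2 and Adarb2 were called higher too, so the higher factors were not those of the medial eminence alone.

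Most of the peptides and calcium-binding proteins that mark interneuron subclasses were higher. Of 17 measured, 11 were higher and 4 lower (median log2 difference 1.52), where 21.4% and 21.2% of all genes were called. The lower share was thus near that of all genes. Sst, somatostatin, stood at 21131 and 20308 against 2998 and 3286 normalized counts, a 6.59-fold difference (log2 2.72, SE 0.06, adjusted p = 7.91e-05, limma). Chodl, a lectin of long-range somatostatin neurons, stood at 419 and 445 against 34.8 and 31.0, and Npy, neuropeptide Y, at 5372 and 4942 against 2185 and 2880. The sets did not overlap for these 3 genes, nor for 74.6% of all genes. In the other direction, Vip stood at 386 and 415 against 1023 and 951, Cck at 5785 and 5834 against 18806 and 20741, and Lamp5 at 596 and 670 against 2860 and 2960. Vip, Cck and Lamp5 mark interneurons of the caudal eminence, and Cck and Lamp5 are also made by excitatory neurons. Pvalb, parvalbumin, was low throughout, at 54.2 and 41.6 against 46.4 and 48.9, and the sets overlapped.

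Genes of striatal projection neurons were higher as well, where 21.4% of all genes were called higher and 21.2% lower. Of 17 measured 16 were called higher and none lower, with a median log2 difference of 1.63, and with vehicle 1 alone 15 were called. Ppp1r1b, the phosphatase inhibitor DARPP-32, stood at 5214 and 4516 against 1667 and 1474 normalized counts. The dopamine receptors Drd1 and Drd2 stood at 266 and 262 against 130 and 129, and at 437 and 470 against 155 and 123. Adora2a, the adenosine receptor paired with Drd2 in indirect pathway neurons, was 5.10-fold higher, and the peptide precursors Penk and Tac1, which interneurons also make, were 5.38-fold and 5.82-fold higher. Isl1, a factor of developing direct pathway neurons, stood at 61.3 and 81.9 against 8.93 and 8.35.

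Reln, the secreted glycoprotein of Cajal-Retzius cells and of interneurons, stood at 29862 and 31030 against 4442 and 4107 normalized counts, 7.12-fold higher. Of 8 genes listed for Cajal-Retzius cells 4 were higher and none lower, where 21.4% and 21.2% of all genes were called. The higher ones, Reln, Ndnf, Calb2 and Cacna2d2, are expressed by interneurons too. The other 4 did not pass, among them Trp73, a factor specific to Cajal-Retzius cells (adjusted p = 0.0774, limma). Of these 4, the lowest log2 difference was -2.01. Lhx1 and Lhx5, further factors of these cells, lay below the minimum at 2.38 to 7.15 normalized counts in all 4 libraries.

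**Figure D1:**
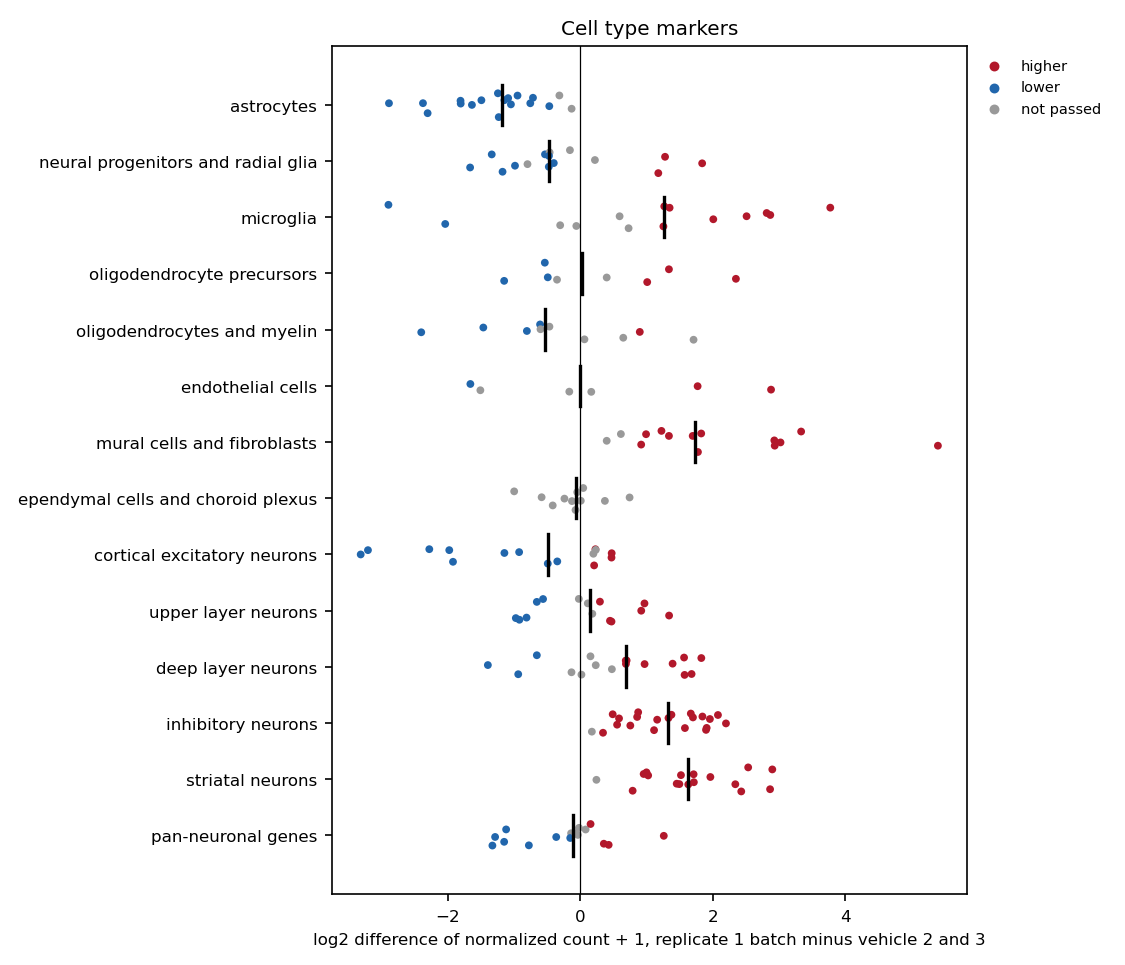
Log2 difference of normalized count plus 1 (x axis, replicate 1 minus vehicle 2 and 3, 2 libraries each) for each gene of 14 marker lists (y axis), coloured by its call with limma. Black bars are list medians, from -1.19 in astrocytes to 1.74 in mural cells and fibroblasts, and 20 of 21 inhibitory and 16 of 17 striatal genes lie on the higher side as called.

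Astrocyte genes were lower in the replicate 1 cultures. Of 18 measured none was higher and 16 were lower, where 21.2% of all genes were called lower, and the median log2 difference was -1.19. The other 2, Sox9 and Ntsr2, had log2 differences of -0.13 and -0.32 and did not pass. Summed over the list, the normalized counts were 41766 and 45587 in vehicle 1 and NGPF2 1, and 121244 and 111428 in vehicle 2 and 3. With vehicle 1 alone 14 of the 18 were called lower.

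Gfap, the intermediate filament of astrocytes, stood at 2914 and 3029 against 9219 and 9265 normalized counts (3.11-fold lower, log2 -1.64, SE 0.05, adjusted p = 9.91e-05, limma). Kcnj10, the inward rectifier Kir4.1 that clears potassium, was further apart, at 1853 and 1776 against 13990 and 12923 (7.42-fold lower). Slc1a2, the glutamate transporter GLT-1, stood at 2697 in vehicle 1 and 6056 in NGPF2 1 against 21469 and 18606, so that it differed within replicate 1 as well. Acsbg1, a fatty acid ligase, was 2.82-fold lower. Slc1a3, the transporter GLAST, stood at 7502 and 7603 against 11117 and 9824, and Gja1, connexin 43, at 1069 and 1030 against 2151 and 1910.

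Genes of dividing cells and of radial glia were mostly lower too, where 21.4% of all genes were called higher and 21.2% lower. Of 30 cell cycle genes none was higher and 16 were lower (median log2 difference -0.60). Top2a, a topoisomerase of dividing cells, stood at 197 and 219 against 596 and 602 normalized counts, Ccnb1, a mitotic cyclin, at 59.3 and 57.6 against 207 and 203, and Cdk1, its kinase, at 44.5 and 32.6 against 165 and 131. Mki67 stood at 147 and 260 against 381 and 304 and did not pass (adjusted p = 0.0774, limma). Of 15 progenitor genes 3 were higher and 8 lower (median -0.47). Hopx, a radial glial gene that astrocytes keep, was 3.18-fold lower. Eomes, also called Tbr2, the factor of intermediate progenitors, was 3.61-fold higher, at 146 and 186 against 38.4 and 53.7.

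Genes of contractile and matrix-producing cells of vessels and meninges were higher in replicate 1, where 21.4% of all genes were called higher. Of 14 mural cell and fibroblast genes measured, 12 were higher and none lower (median log2 difference 1.74), and 7 were called with vehicle 1 alone. Acta2, the smooth muscle actin, stood at 1038 and 956 against 28.6 and 17.9 normalized counts, 42.9-fold higher (log2 5.40, SE 0.24, adjusted p = 0.000179, limma). Tagln, transgelin, stood at 771 and 664 against 91.1 and 83.5, and Col1a1, a collagen of fibroblasts, at 548 and 456 against 47.3 and 50.1. Rgs5, a pericyte gene, stood at 380 and 374 against 56.3 and 41.7. Summed over the list the counts were 4691 and 4335 against 941 and 819.

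The wider list of matrix and adhesion genes had 20 of 33 higher and 6 lower (median log2 difference 0.57), where 21.4% and 21.2% of all genes were called. Thbs1, the secreted thrombospondin 1, stood at 1737 and 1467 against 221 and 125 normalized counts, and Fn1, fibronectin, at 2376 and 2062 against 436 and 359. Lox, the enzyme that crosslinks collagen, was 36.8-fold higher, at 569 and 561 against 18.8 and 11.9. Endothelial genes were at very low levels in both sets, with Cldn5, their tight junction claudin, at 0 to 2.68 and a summed level of 135 to 180 over the list. Of the 6 that reached the minimum, Kdr and Flt1, both receptors of vascular growth factor, were higher and Esam was lower. The call of Flt1 was lost in 4 of 13 alternatives, those without vehicle 1 or NGPF2 1 among them (adjusted p up to 0.167, limma), and that of Esam without vehicle 1 (adjusted p = 0.0736, limma).

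Most of the microglial and myeloid genes called were higher. Of 14 measured 8 were higher and 2 lower (median log2 difference 1.26, and 1.18 with vehicle 1 alone), where 21.4% and 21.2% of all genes were called. Lower calls were thus no more frequent than over all genes. Csf1r, the growth factor receptor of microglia and macrophages, stood at 220 and 260 against 54.5 and 63.2 normalized counts, and Laptm5, a lysosomal protein of blood-derived cells, at 586 and 595 against 111 and 95.4. Itgam, the integrin CD11b, stood at 101 and 44.8 against 4.47 and 3.58. In contrast Trem2 stood at 7.09 and 8.32 against 72.3 and 56.1, and Cx3cr1, the fractalkine receptor, at 11.0 and 23.7 against 81.3 and 59.6, the latter with its call lost in 3 of 13 alternatives, those without vehicle 1 or vehicle 2 among them (adjusted p up to 0.0573, limma). P2ry12 and Tmem119, which resident microglia express in tissue, lay below the minimum in both sets, at 2.68 to 14.8.

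Several of the largest differences in the whole table were in myeloid genes. Marco, a scavenger receptor of macrophages (chr1:120474538-120505024), stood at 845 and 972 normalized counts in vehicle 1 and NGPF2 1 and at 0 in vehicle 2 and 3. Set against a floor of 3 counts in each of vehicle 2 and 3, this is at least 290-fold higher. Fcrls and Adgre1, also called F4/80, were 31.9-fold and 24.2-fold higher, at 856 and 808 against 36.6 and 15.5 and at 669 and 642 against 37.5 and 16.7. Rac2, a GTPase of blood-derived cells, was 42.5-fold higher and Pik3ap1, an adaptor of immune receptors, 20.4-fold. Ptprc, the leukocyte antigen CD45, stood at 104 and 108 against 9.82 and 16.7, while the haemoglobin genes listed did not exceed 10.2 in any library.

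Most inflammatory genes called were higher in the same cultures, where 21.4% of all genes were called higher and 21.2% lower. Summed over the inflammatory list, however, normalized counts were close, at 6616 and 6563 in vehicle 1 and NGPF2 1, and 5983 and 6191 in vehicle 2 and 3. Of 23 interferon and inflammatory genes measured 13 were higher and 2 lower (median log2 difference 0.94), and 7 and 1 with vehicle 1 alone. Tlr2, a receptor of microbial lipoproteins, stood at 98.7 and 123 against 4.47 and 11.9 normalized counts, Ifit1, an interferon-induced gene, at 69.0 and 71.0 against 11.6 and 17.9, and Tnf at 27.1 and 34.5 against 0 and 0 (at least 9.85-fold). Of 23 genes of reactive glia 12 were higher and 3 lower (median 0.77), with C3, a complement component, at 318 and 326 against 78.6 and 64.4, and Gfap among the lower ones. The summed counts of this list lay the other way, at 11178 and 11372 against 18116 and 19828. Myeloid genes were also higher, at summed levels of 2723 and 2893 against 1773 and 1688, and their part in the inflammatory differences was not tested.

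Genes of the oligodendrocyte lineage were called in both directions, where 21.4% of all genes were called higher and 21.2% lower. Of 8 precursor genes 3 were higher and 3 lower (median log2 difference 0.02, a sign that changed in 5 of 14 alternatives), with Olig1 and Olig2, factors of the lineage, both lower. Of 10 myelin genes 1 was higher and 4 lower (median -0.53). Mobp, a protein of compact myelin, stood at 31.0 and 30.7 against 162 and 173 normalized counts, and Mbp, myelin basic protein, at 714 and 734 against 1248 and 803 and did not pass (adjusted p = 0.128, limma). None of 11 ependymal and choroid plexus genes was called (limma), the same number as with vehicle 1 alone.

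**Figure D2:**
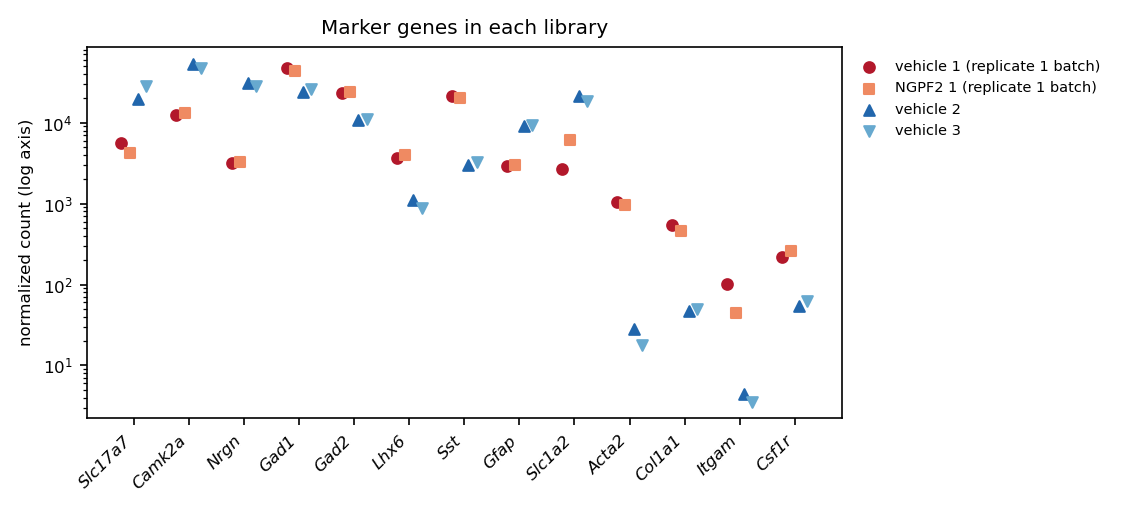
Normalized count (y axis, log scale) of 13 marker genes (x axis) in each of the 4 libraries, red and orange for replicate 1 and blue for vehicle 2 and 3. The 2 symbols of a set lie close together for most genes, with Slc1a2 (2697 and 6056) and Itgam (101 and 44.8) further apart within replicate 1. The sets do not overlap for any gene shown, nor for 74.6% of all genes.

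RNA of the immature neuronal program was more abundant in the replicate 1 cultures. Among all genes 21.4% were called higher and 21.2% lower. Of 26 immature neuron genes 22 were higher and 1 lower (median log2 difference 0.69), and 19 and 1 with vehicle 1 alone. Dcx, doublecortin, the microtubule protein of migrating neurons, stood at 7333 and 7879 against 2249 and 2137 normalized counts, 3.47-fold higher (log2 1.79, SE 0.06, adjusted p = 0.000119, limma). St8sia2 and St8sia4, the enzymes that add polysialic acid to the adhesion molecule NCAM, were further apart. St8sia2 stood at 2355 and 2598 against 272 and 262 (9.28-fold) and St8sia4 at 1806 and 1785 against 188 and 146 (10.8-fold).

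Cytoskeletal genes of growing axons were part of the same group. Dpysl3, a growth cone protein also called CRMP4, stood at 43616 and 44447 against 7557 and 7186 normalized counts, 5.97-fold higher. Tubb3, the neuronal tubulin, was 2.39-fold and Tubb2b 2.64-fold higher, the latter with reads that a near-identical copy, Tubb2a, may share. Sox4, a factor of newborn neurons, was 2.21-fold higher and Nnat, neuronatin, 2.58-fold. Gap43, a growth cone gene that many neurons keep, was higher by 0.15 on the log2 scale, a call lost in 5 of 14 alternatives, those without vehicle 1, vehicle 2 or NGPF2 1 among them (adjusted p up to 0.156, limma). The exception was Cdk5r1, the activator p35, which was lower, at 10360 and 10778 against 14371 and 15022.

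Genes of mature neurons were mostly lower, where 21.4% of all genes were called higher and 21.2% lower. Of 30 measured 4 were higher and 21 lower (median log2 difference -0.72). The list shares Slc17a7, Camk2a and Nrgn with that of excitatory neurons, and Camk2a with that of the postsynaptic density. The part of the mix of cell types in the lower calls was not tested. Snap25, the SNARE of synaptic vesicles, stood at 22023 and 22402 against 48596 and 50015 normalized counts, 2.22-fold lower. Vsnl1 and Hpca, both neuronal calcium sensors, stood at 8504 and 8781 against 22914 and 22737, and at 1456 and 1788 against 6257 and 6447. Rbfox3, the nuclear antigen NeuN, stood at 2551 and 2939 against 6979 and 6771. Syt1, the calcium sensor of release, by contrast stood at 41563 and 42363 against 42835 and 42276, a log2 difference of -0.02 that did not pass (adjusted p = 0.66, limma), and Map2, the dendritic microtubule protein, at 29800 and 28620 against 34081 and 30373. Among the higher genes were Hcn2, Kcnc2 and Scn1a, all channel subunits. Kcnc2 and Scn1a are strongly expressed in interneurons, whose genes were also higher, and the part of this in their difference was not tested. Scn1a did not pass without vehicle 1 (adjusted p = 0.0838, limma).

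Pairs of related genes that replace each other in the postnatal cortex, and Snap25 over Dcx, were compared as ratios within each library. Such ratios do not depend on the size factors. The ratio of 2 genes also reflects the lengths of their transcripts, so only its difference between libraries was read. Of 12 pairs computed, written with the later gene first, 9 are reported here, and 8 of these had a lower ratio in both replicate 1 libraries. The log2 ratio of the NMDA receptor subunits Grin2a and Grin2b was -2.38 and -2.40 in vehicle 1 and NGPF2 1 and -1.91 and -1.85 in vehicle 2 and 3. For the sodium channels Scn8a and Scn3a it was 1.42 and 1.53 against 2.48 and 2.68.

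The widest gap was for Snap25 over Dcx, with log2 ratios of 1.59 and 1.51 against 4.43 and 4.55. This pair sets a mature over an immature neuron gene, not 1 subunit over another, and both genes are described above. The narrowest gap was for Scn1a over Scn3a, 0.73 and 0.66 against 0.75 and 0.84. For the chloride transporters Slc12a5 over Slc12a2, whose balance sets the polarity of GABA responses, it was 3.02 and 3.09 against 3.49 and 3.45. Kcnn2 over Kcnn1, a pair of calcium-activated potassium channels, went the other way, 2.38 and 2.11 against 0.49 and 0.70. None of the 9 pairs overlapped between the sets, and 74.6% of single genes did not overlap either. These ratios were given no test. Taken singly, of 15 genes listed as rising in the postnatal cortex 4 were higher and 7 lower (median log2 difference -0.16). Of 15 listed as falling 8 were higher and 4 lower (median 0.50), where 21.4% and 21.2% of all genes were called.

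**Figure D3:**
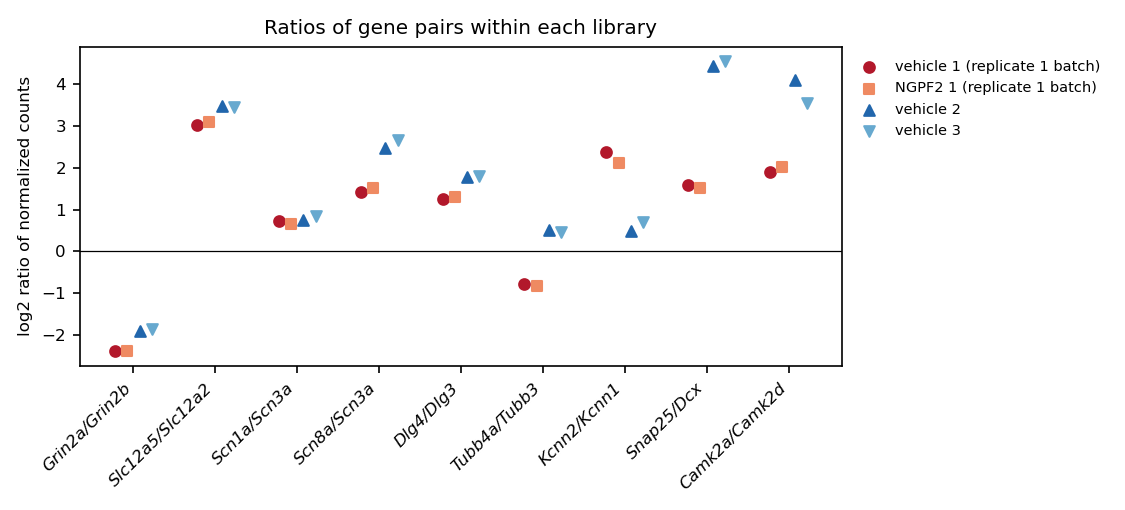
Log2 ratio of normalized counts (y axis) of 9 gene pairs (x axis) in each of the 4 libraries, red and orange for replicate 1 and blue for vehicle 2 and 3. In 8 pairs both replicate 1 symbols lie below the blue ones, and in Kcnn2/Kcnn1 they lie above (2.38 and 2.11 against 0.49 and 0.70).

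Of 31 postsynaptic density genes 2 were higher and 22 lower (median log2 difference -0.48), where 21.4% and 21.2% of all genes were called. The scaffold Dlg2, also called PSD-93, stood at 12149 and 7966 against 23590 and 22275 normalized counts, Nlgn1, the neuroligin of excitatory synapses, at 932 and 1034 against 2055 and 2667, and Lrrtm3, a synaptic adhesion protein, at 411 and 468 against 1124 and 1059. Shank3 was lower by 0.32 on the log2 scale. Of 35 presynaptic genes 7 were higher, a share near that of all genes, and 17 lower (median -0.21). Some paralogs differed in direction. Sv2b, a vesicle glycoprotein of many glutamatergic terminals, stood at 2843 and 2905 against 14758 and 13905, while Sv2c stood at 4428 and 4389 against 1890 and 2147. Cplx2 was 2.41-fold lower, and Cplx1, the complexin of many inhibitory neurons, was higher by 0.79 on the log2 scale.

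Of 38 glutamate receptor genes 13 were higher and 12 lower (median log2 difference 0.09), where 21.4% and 21.2% of all genes were called. Among AMPA receptor subunits, Gria1 stood at 21996 and 22262 against 11590 and 10533 normalized counts, and Gria4, the subunit of early and interneuron receptors, at 3974 and 4006 against 2791 and 2477. Gria2, which sets low calcium permeability, stood at 9911 and 12163 against 16895 and 14271, and its call as lower was lost in 5 of 14 alternatives, those without vehicle 1 or vehicle 2 among them (adjusted p up to 0.115, limma). Gria3 stood at 1473 and 1557 against 6798 and 6278, 4.32-fold lower. The auxiliary subunits Cacng3 and Gsg1l were 2.76-fold and 3.27-fold lower. Grik1, a kainate receptor subunit of interneurons, stood at 2741 and 2639 against 341 and 302, 8.37-fold higher, and Grin2d, an NMDA receptor subunit of interneurons and young neurons, at 916 and 968 against 217 and 215.

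Ion channels were more often lower than higher, where 21.4% of all genes were called higher and 21.2% lower. Of 37 potassium and HCN channel genes 12 were higher and 18 lower (median log2 difference -0.23), and of 23 sodium and calcium channel genes 4 and 12 (median -0.37). Kcnq3, a subunit of the M-current channel, stood at 3251 and 3590 against 15170 and 14065 normalized counts, and Kcnip3, a calcium-binding partner of Kv4 channels, at 782 and 813 against 4878 and 5048. Of 19 genes for GABA-A receptors and their partners 8 were higher and 7 lower (median 0.06). Perineuronal matrix genes were also divided, 4 of 10 higher and 5 lower (median -0.34). The lecticans Acan, at 6786 and 6756 against 1493 and 1690, and Vcan, at 1446 and 1624 against 247 and 173, were higher. Hapln4, at 199 and 143 against 301 and 394, was lower, a call lost in 4 of 14 alternatives.

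**Figure D4:**
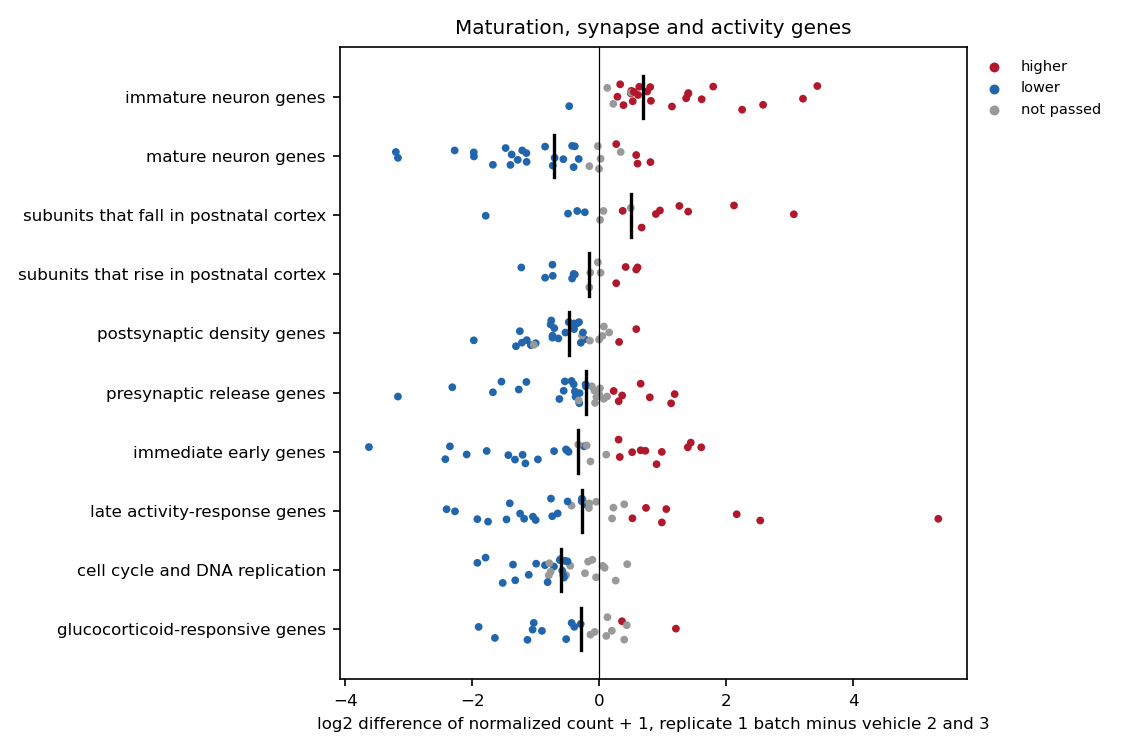
Log2 difference of normalized count plus 1 (x axis, replicate 1 minus vehicle 2 and 3, 2 libraries each) for each gene of 10 lists of maturation, synapse, activity, cell cycle and hormone-responsive genes (y axis), coloured by its call with limma. Medians (black bars) are 0.69 for immature and -0.72 for mature neuron genes. The immediate early genes spread from -3.63 (Arc) upward with 10 higher and 15 lower, where 21.4% and 21.2% of all genes were called.

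Immediate early genes were called in both directions, where 21.4% of all genes were called higher and 21.2% lower. Of 29 measured 10 were higher and 15 lower (median log2 difference -0.33), and with vehicle 1 alone 5 and 12. Arc, the capsid-like effector of AMPA receptor endocytosis (chr15:74669083-74672570), stood at 394 and 407 against 4739 and 5213 normalized counts, 12.4-fold lower (log2 -3.63, SE 0.07, adjusted p = 7.91e-05, limma). Egr1, a zinc finger factor, stood at 1461 and 1589 against 8195 and 8199, and Egr3 at 1107 and 1384 against 5994 and 6695. Npas4, a factor induced by calcium entry, stood at 710 and 620 against 1754 and 1836. The 4 genes were each lower in both replicate 1 libraries, where the sets did not overlap for 74.6% of all genes.

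The Fos genes and most Nr4a genes lay on the other side. Fos stood at 2379 and 2172 against 1774 and 1867 normalized counts, a log2 difference of 0.32 (SE 0.07, adjusted p = 0.0177, limma). The call of Fos was lost in 4 of 14 alternatives, those without vehicle 1 or vehicle 2 among them, with an adjusted p of up to 0.0944 (limma, without vehicle 1). Fosb stood at 1471 and 1533 against 767 and 751, and Fosl2 at 9686 and 9186 against 3195 and 3783. Nr4a2, an orphan nuclear receptor that also marks deep layer cells, stood at 765 and 798 against 284 and 310. Nr4a3 stood at 5942 in vehicle 1, 2813 in NGPF2 1, and 1230 and 1467 in vehicle 2 and 3, so that it too was apart within replicate 1, and its call was lost in 3 of 14 alternatives (adjusted p up to 0.0769, limma), that without vehicle 2 among them. Nr4a1 was lower, at 1208 and 1224 against 1634 and 1880, and did not pass without vehicle 1 (adjusted p = 0.0516, limma).

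The promoters of genes from either side are printed because the opposite calls met the same short motif. The windows are the 250 bases before the annotated start (RefSeq, GRCm38.p6), read 5′ to 3′ on the strand of the gene, with matches in capitals. Searched were the cyclic AMP response element TGACGTCA, its core (TGACG, or CGTCA on the other strand, which a full element also holds), the CArG box of serum response factor, and the EGR site GCGTGGGCG or GCGGGGGCG, on both strands. Npas4 (chr19:4989972-4990221, minus strand) and Egr4 (chr6:85513590-85513839, minus strand) were lower in replicate 1, and Fos (chr12:85473640-85473889, plus strand) and Fosb (chr7:19310046-19310295, minus strand) were higher.
Npas4: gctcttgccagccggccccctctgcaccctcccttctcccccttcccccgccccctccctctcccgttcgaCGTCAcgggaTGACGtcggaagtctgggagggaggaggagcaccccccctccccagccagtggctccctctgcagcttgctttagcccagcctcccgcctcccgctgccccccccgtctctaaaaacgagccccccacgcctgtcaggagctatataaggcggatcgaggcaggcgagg
Egr4: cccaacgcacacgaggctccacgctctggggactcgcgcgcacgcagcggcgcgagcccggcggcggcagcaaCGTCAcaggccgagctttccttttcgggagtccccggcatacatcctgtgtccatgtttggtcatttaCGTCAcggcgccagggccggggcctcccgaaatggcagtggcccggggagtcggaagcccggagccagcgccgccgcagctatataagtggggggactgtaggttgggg
Fos: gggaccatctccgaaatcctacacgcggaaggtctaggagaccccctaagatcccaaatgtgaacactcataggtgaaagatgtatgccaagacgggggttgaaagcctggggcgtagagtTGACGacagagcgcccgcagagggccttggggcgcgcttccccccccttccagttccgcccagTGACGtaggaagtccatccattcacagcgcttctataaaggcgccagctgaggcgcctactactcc
Fosb: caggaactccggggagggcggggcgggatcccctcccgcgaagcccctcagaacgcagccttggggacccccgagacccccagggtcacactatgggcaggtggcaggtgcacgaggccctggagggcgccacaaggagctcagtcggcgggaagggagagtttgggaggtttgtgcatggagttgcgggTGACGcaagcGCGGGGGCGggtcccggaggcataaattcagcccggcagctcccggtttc

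Capitals mark the core in all 4 windows, at -179 and -169 from the start in Npas4, -177 and -109 in Egr4, -129 and -66 in Fos and -60 in Fosb, and the EGR site at -50 in Fosb. Egr4 stood at 966 and 1009 against 2204 and 2229 normalized counts. The core was found for 7 of the 10 higher immediate early genes and for 7 of the 10 genes with a promoter among the 15 lower ones. It was also found for 4 of the 4 genes that did not pass. It is in 17.75% of 32817 promoters of the same length. The EGR site was found for 4 of 10, 1 of 10 and 2 of 4 genes, and in 3.06% of all promoters. The full element was found for 1 of 10, 1 of 10 and 1 of 4 (1.55% of all promoters). For the CArG box it was 0 of 10, 1 of 10 and 1 of 4 (1.47%). Sites more than 250 bases before the start were not searched. A gene was counted if any of its promoters held the motif, so these counts are not shares per promoter. These are letter matches and were not measured as binding.

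Late activity genes, which encode secreted and synaptic proteins, were mostly lower. Of 32 measured 7 were higher and 17 lower (median log2 difference -0.28), where 21.4% and 21.2% of all genes were called. Bdnf, the neurotrophin, stood at 2813 and 2479 against 5921 and 6653 normalized counts, 2.38-fold lower. Nptx2, the pentraxin that clusters AMPA receptors, stood at 2207 and 2020 against 9376 and 11147, 4.86-fold lower. Ptgs2, the inducible cyclooxygenase, stood at 231 and 205 against 1090 and 1233, and Homer1, whose short form is induced by activity, at 3340 and 3313 against 6566 and 6778. Nrn1, neuritin, stood at 605 and 859 against 4902 and 1527 and was spread widely within vehicle 2 and 3, with its call lost in 4 of 14 alternatives, those without vehicle 1 or NGPF2 1 among them (adjusted p up to 0.188, limma). Dusp6, a phosphatase of ERK, was 2.76-fold lower and the proneuropeptide Vgf 1.68-fold, while Scg2 did not pass (adjusted p = 0.0502, limma).

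The higher members of this list, whose share was near that of all genes, included peptide precursors. Cartpt, the CART peptide precursor, stood at 202 and 205 against 2.68 and 5.96 normalized counts, 47.2-fold higher, and Tac1, which is also a striatal marker, was 5.82-fold higher. Tent5a, a poly(A) polymerase, stood at 629 and 555 against 111 and 155. Of 24 genes of homeostatic scaling 8 were higher and 12 lower (median log2 difference -0.09), where 21.4% and 21.2% of all genes were called. Arc, Bdnf, Nptx2 and Camk2a, described above, were among the lower ones.

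**Figure D5:**
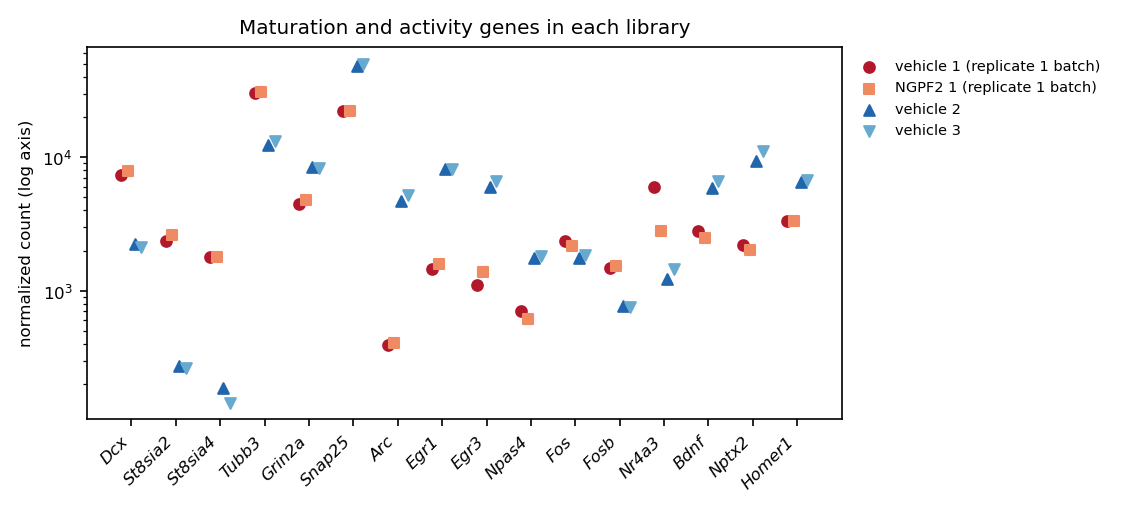
Normalized count (y axis, log scale) of 16 maturation and activity genes (x axis) in each of the 4 libraries, red and orange for replicate 1 and blue for vehicle 2 and 3. Dcx, St8sia2, St8sia4, Tubb3, Fos, Fosb and Nr4a3 are higher in both replicate 1 libraries, and Arc (394 and 407 against 4739 and 5213), Egr1, Egr3, Npas4, Bdnf, Nptx2, Homer1, Grin2a and Snap25 are lower.

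Beyond the lists, the 12 genes of largest difference on each side were named by size among genes with a mean of at least 200. On the higher side were the myeloid genes Marco, Rac2, Fcrls, Adgre1 and Pik3ap1, the smooth muscle and matrix genes Acta2, Pdlim3 and Lox, the interneuron lectin Chodl, the neurexin ligand Nxph2, and Ppp1r1c and Tcim. Ppp1r1c, an inhibitor of protein phosphatase, stood at 537 and 398 normalized counts against 0 and 0, at least 149-fold higher. Nxph2 stood at 1173 and 1049 against 83.1 and 84.7. Log2 differences of the 12 ran from 3.68 to 9.83.

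On the lower side were the excitatory neuron genes Nrgn and Slc30a3, the immediate early gene Arc, Camk2n1, an inhibitor of the CaMKII kinase, and Syt2, Sstr3, Fam19a1, Tgm3, Asb11, Aldh1a1, Hr and Bc1. Camk2n1 stood at 3216 and 2879 against 31493 and 32015 normalized counts, 10.4-fold lower. Hr, a nuclear corepressor and a well known target of thyroid hormone (chr14:70552212-70573548), stood at 70.3 and 87.0 against 1164 and 1134, 14.6-fold lower. Aldh1a1, an enzyme that makes retinoic acid, stood at 90.3 and 63.3 against 1491 and 1533, whereas its relatives Aldh1a2 and Aldh1a3 were 13.1-fold and 10.9-fold higher. Hr and these enzymes are on a list of thyroid hormone and retinoid-responsive genes that was split. Of 20 measured 5 were higher and 7 lower (median log2 difference -0.43), where 21.4% and 21.2% of all genes were called. Asb11 was the furthest, at 13.5 and 22.4 against 507 and 704. Bc1, a small cytoplasmic RNA of dendrites, stood at 174 and 128 against 1370 and 1269. Log2 differences of the 12 ran from -5.02 to -3.13.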

How the data were processed

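The deposited table holds log2 of a normalized count plus 1, although it is named as FPKM. Undoing the log gave whole multiples of 1 step per library for 100% of values (tolerance 0.01), so counts and size factors (1.55, 1.56, 1.12 and 0.838 in vehicle 1, NGPF2 1, vehicle 2 and vehicle 3) were recovered from the authors' values. Per the submitters' processing notes, the tools included DESeq 1.22.1, Cuffnorm, STAR 2.5 and FastQC, with the mm10 build. How reads were counted, with which annotation and strand, is not given in the sources used here. Genes that overlap, antisense genes and close copies are uncertain for that reason. Messenger RNA was selected with oligo(dT), per the labels' protocols.

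The columns of vehicle 2 and 3 carry the library names of their titles. The vehicle and NGPF2 columns left over, which bear a 3 in their names, were assigned to replicate 1 by their initials and because no other sample remained. The authors' log2 values (pseudocount 1) entered a linear model in limma 3.58.1 (R 4.3.3), with empirical Bayes with a mean-variance trend, batch as the only term and 2 residual degrees of freedom. Folds are ratios of mean normalized counts, and the log2 scale understates the change of low genes. The fit was tested on simulated data. GENCODE M21 (GRCm38) gave symbols for 31185 identifiers and none for 60.

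The comparison, its members and the 52 gene lists were chosen with earlier results of these data known. Lists are described by counts and medians, without a test, and 974 of their 1040 genes reached the minimum. Named genes were the 12 largest differences per direction with a mean of at least 200, up to 4 largest called genes per list and a set of fixed markers. Other members of the lists were added as examples after their values were seen. Floors and totals cover counting error only. Alternatives covered the pseudocount, the filter, the scaling, the trend, voom on the recovered counts and each library left out, and, added after seeing the data, thinning to the smallest total. Some items are not reported here.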

Additional observations from a re-analysis of the deposited data

How the results depend on the processing

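Against 3589 genes called higher and 3550 lower, leaving out 1 library gave 1846 to 3512 higher and 2056 to 3068 lower. The lowest counts came without NGPF2 1 (1846 and 2056) and without vehicle 1 (1889 and 2158), where 1 replicate 1 library was left. The other 10 alternatives gave 2858 to 3755 higher and 2770 to 3657 lower. Quantile scaling called 1 gene in the opposite direction, and none of the others did. No paired analysis was possible because the replicate numbers lie within the batches compared, 1 on one side and 2 and 3 on the other. Scaling moved the median of all genes by at most 0.02, and testing every gene above 0 moved it to 0.09. Of the list medians, those of oligodendrocyte precursors and endothelial cells changed sign in 5 of 14 and 6 of 13 alternatives, heat shock in 2, and ependymal and clock genes in 1 each. Signs changed for 4 genes named in the text that were not called. The log2 difference of Pvalb, -0.01, had the other sign with library total scaling (0.00898) and thinning (0.0860), and ran from -0.19 to 0.18 with 1 library left out (0.03 without vehicle 3). The log2 difference of Syt1 was 0.0649 with quantile scaling. With 1 library left out, the log2 difference of Tsc22d3 ran from -0.0494 (without vehicle 3) to 0.27 and the log2 difference of Xist from -0.0135 (without NGPF2 1) to 0.16. Of 274 called genes named here or by rule, 25 lost their call without NGPF2 1, 28 without vehicle 1 and 22 without the mean-variance trend. Genes near the minimum count, such as Gjb6, Flt1 and Aif1, rest on few counts.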

Other observations

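Over all genes tested, 21.4% were called higher and 21.2% lower. Of 74 cytosolic ribosomal protein genes 4 were higher and 39 lower in the replicate 1 cultures (median log2 difference -0.25), Rps19 at 1261 and 1146 against 2134 and 2105 normalized counts, and many of these genes have near-identical pseudogenes that may share reads. Of 45 nuclear-encoded respiratory chain genes 5 were higher and 22 lower (median -0.21), with Cox6c, a subunit of cytochrome c oxidase, at 1627 and 1451 against 3410 and 3016. The transcripts encoded in mitochondria lay the other way, 11 of 15 higher and 2 lower (median 0.39). The mitochondrial messenger mt-Atp6 stood at 18835 and 18832 against 11879 and 10143, and the 2 lower ones were the ribosomal RNAs mt-Rnr1 and mt-Rnr2. With quantile scaling the median of this list was 0.01. Of 26 glycolysis and hypoxia genes 2 were higher and 15 lower (median -0.28), and of 24 cholesterol synthesis genes 3 and 11 (median -0.17).

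Of 30 genes of the integrated stress response 4 were higher and 16 lower (median log2 difference -0.30), where 21.4% and 21.2% of all genes were called. Ddit3, the factor CHOP, stood at 571 and 572 against 1536 and 1686 normalized counts and Nupr1 at 72.2 and 75.5 against 245 and 262. Of 19 glucocorticoid-responsive genes 2 were higher and 10 lower (median -0.29). Fkbp5, a chaperone of the receptor, stood at 716 and 753 against 1633 and 1592, while Tsc22d3, another of its targets, stood at 814 and 849 against 860 and 691 and did not pass (adjusted p = 0.504, limma). Klf9, a target of both glucocorticoid and thyroid hormone, stood at 3019 in vehicle 1, 1457 in NGPF2 1, and 8101 and 7594 in vehicle 2 and 3. In the retinoid pathway Cyp26b1, which degrades retinoic acid, was 5.78-fold lower and the receptor Rarb 2.75-fold higher.

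Of 21 genes of insulin-like growth factor signalling and lipid synthesis 6 were higher and 9 lower (median log2 difference -0.08). Igf1 stood at 3268 and 3516 against 599 and 514 normalized counts, 6.09-fold higher, and the log2 differences of Wnt4 and Wnt9a, both lower, were -2.52 and -2.81, the Wnt genes being named after their values were seen. Of 20 genes of p53 and apoptosis 3 were higher and 6 lower (median log2 difference -0.18), where 21.4% and 21.2% of all genes were called. Xist, the RNA of the inactive X chromosome, stood at 9132 and 10293 against 9432 and 9009, and the Y-linked Ddx3y at 1013 and 1016 against 678 and 666, so that RNA of both sexes was present in each library. In all, 9 genes exceeded 50 normalized counts in both replicate 1 libraries and did not exceed 3 in vehicle 2 or 3, and 6 genes did the reverse. Ighm, the heavy chain of immunoglobulin M, stood at 193 and 155 against 0 and 0 (at least 55.7-fold higher), and Chil3, a chitinase-like protein of macrophages, at 0 and 0 against 138 and 100.2 (at least 61.9-fold lower), the pair being named after their values were seen. Over 5 classes of exon length of about equal size, median log2 differences ran from -0.05 to 0.05.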
